A study of Mus musculus with 8 samples.

Results

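The genes described here are 8 receptors and 1 enzyme through which hormones and metabolites set the rate of fat breakdown in adipocytes. They are Adrb1, Adrb3, Adra2a, Adora1, Ptger3, Hcar1, Hcar2, Npr3 and Pde3b. They were taken by symbol from a list of 9 genes. All 9 were found among the 37046 gene-level features of the study, and all 9 passed the filter on low counts.

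RNA of white adipose tissue was sequenced from wild-type females of the inbred mouse strain C57BL/6J. The endostatin group (4 libraries) received endostatin at 50 mg/kg by tail vein, and the control group (4 libraries) received phosphate-buffered saline (PBS). Tissue was collected 2 h after the injection in both groups, and food was withheld during that time. Endostatin, a fragment of collagen XVIII, is known to restrain the growth of blood vessels. Libraries 1 and 2 of each group belong to batch 1 of the labels and libraries 3 and 4 to batch 2. The labels used here give no age. The labelled fat depot is epididymal although the mice are female. The labels also repeat the read file name of endostatin 3 for endostatin 4, although the values of these libraries differ, as those of Npr3 show below. Which mouse gave which library is not labelled, and the study speaks of 4 mice without saying whether per group. The p-values therefore measure the spread between these libraries, which may be technical in part.

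Lipolysis in the adipocyte is driven by cyclic AMP (cAMP). Beta-adrenergic receptors couple to the stimulatory G protein Gs, which activates adenylyl cyclase, and the cAMP formed activates protein kinase A (PKA), which sets the lipases of the fat droplet to work. A set of receptors coupled to the inhibitory G protein Gi opposes this step: Adra2a for catecholamines, Adora1 for adenosine, Ptger3 for prostaglandin E2, Hcar1 for lactate and Hcar2 for beta-hydroxybutyrate and niacin. Pde3b, a phosphodiesterase activated by insulin, degrades cAMP. Npr3 is the clearance receptor of the natriuretic peptides and removes them from the cell surface. These peptides can stimulate lipolysis through cyclic GMP, an action not examined here in mouse fat.

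The total estimated count was 17197721 to 23786594 in endostatin libraries and 15826783 to 19221886 in control libraries. Where a gene has no count, up to 3 counts are still possible at this depth, or 0.126 to 0.190 CPM (counts scaled to a common library total), as far as counting error alone goes. All 14 adipocyte markers, such as Adipoq and Plin1, were above 0 in every library. They summed to 48385 to 53138 TPM in the endostatin libraries and to 32193 to 62069 TPM in the control libraries. The lowest sum was that of control 3. Lpl, Gpd1, Slc2a4, Lep and Retn were each lowest in endostatin 4 (2562, 129, 112, 231 and 1980 TPM), and the other markers in control 3. Cfd and Fabp4 were the largest parts of the sum in endostatin 4, at 20666 and 10544 TPM. Similar sums can therefore hide differing markers. TPM is scaled by transcript length and to a common total, so levels of different genes can be compared on it. Endostatin 4 and control 3 stood apart by oviduct and uterus markers, which summed to 575 TPM in endostatin 4 and 768 TPM in control 3, while the other 6 libraries had 23.6 to 60.8 TPM. Control 1 and control 4 had the highest skeletal muscle markers (239 and 470.3 TPM, while the other 6 libraries had 33.9 to 106 TPM). Hepatocyte markers summed to 22.3 to 1073 TPM in endostatin libraries and 14.2 to 148 TPM in control libraries, with the highest sum in endostatin 4. Endostatin 1 and 2, at 360 and 551 TPM, were also above all controls. In a bulk sample, fewer cells of a type and less RNA per cell cannot be told apart.

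Adrb3 and Ptger3 are each transcribed as forms whose coding sequences end differently, and the ends are printed to show how these forms differ. The transcript shares given further on are estimated from whole transcripts, not from these ends alone. They were read from the GENCODE M21 transcript set (GRCm38), on the coding strand, with the shared part in lower case. Capitals run from the first differing base to the stop codon.
Adrb3-203: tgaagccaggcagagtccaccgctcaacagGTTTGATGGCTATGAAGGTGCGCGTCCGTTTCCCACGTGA
Adrb3-202: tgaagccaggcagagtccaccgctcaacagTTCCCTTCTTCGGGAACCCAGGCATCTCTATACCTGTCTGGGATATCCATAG
Ptger3-202: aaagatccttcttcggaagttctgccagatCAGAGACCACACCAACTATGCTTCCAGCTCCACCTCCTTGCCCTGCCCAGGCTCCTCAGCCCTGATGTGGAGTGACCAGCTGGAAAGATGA
Ptger3-201: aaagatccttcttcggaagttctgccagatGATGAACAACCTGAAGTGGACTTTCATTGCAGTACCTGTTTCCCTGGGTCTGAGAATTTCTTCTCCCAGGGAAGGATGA
The Adrb3 ends lie on the minus strand of chromosome 8, at chr8:27226754-27227286 for Adrb3-203 and chr8:27226845-27227286 for Adrb3-202, and each span includes an intron. The Ptger3 ends lie on the plus strand, at chr3:157605117-157643878 for Ptger3-202 and chr3:157605117-157643955 for Ptger3-201, again across introns. The Adrb3 forms shared their first 1163 coding bases and the Ptger3 forms their first 1010. Both ends of a pair encode the receptor's intracellular C-terminal tail, the part that differs between known splice forms of these receptors.

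Npr3 is also transcribed in a form that lacks 3 coding bases, in capitals in the longer form below, on the minus strand at chr15:11846353-11848498 (GRCm38).
Npr3-201: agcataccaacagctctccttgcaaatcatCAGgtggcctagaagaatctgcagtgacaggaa
Npr3-205: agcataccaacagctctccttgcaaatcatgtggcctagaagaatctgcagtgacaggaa
The other related pairs were distinct enough to be counted apart: the coding sequences of Hcar1 and Hcar2 were 65.5% identical over 1046 aligned bases, with a longest shared run of 18 bases. Those of Adrb1 and Adrb3 were 66.9% identical over 1186 aligned bases, with a longest shared run of 30 bases.

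With all transcripts of a gene summed, Adrb3 had the highest level of the 9 genes in all 8 libraries, and Adrb1 and Adra2a the lowest levels. On the TPM scale, the order of means over the 8 libraries was Adrb3, Npr3, Pde3b, Ptger3, Hcar1, Adora1, Hcar2, Adrb1 and Adra2a, in the endostatin group as in the control group. Of the 22612 features with any signal, 210 had a higher mean TPM than Adrb3, 420 a higher one than Npr3 and 869 a higher one than Pde3b. At the other end, 13031 were higher than Adrb1 and 14252 higher than Adra2a. Some neighbours in this order were not separate. Ptger3 exceeded Hcar1 in 4 of 8 libraries, Npr3 exceeded Pde3b in 6 of 8, and Hcar1 exceeded Adora1 and Adrb1 exceeded Adra2a in 7 of 8. Adrb3 exceeded Npr3, and Pde3b exceeded Ptger3, in 8 of 8 libraries although their ranges over libraries overlapped. Adora1 lay above Hcar2, and Hcar2 above Adrb1, with no overlap of their ranges. When protein-coding transcripts alone were summed, Hcar1 (68.7 TPM) passed Ptger3 (54.4 TPM), and the other ranks of the means held. In endostatin 3, Adrb3 had 547 TPM and Npr3 537 TPM with all transcripts. There Adrb3-204, which has no coding frame, held 22.2% of the Adrb3 TPM. The non-coding Npr3-202 and Npr3-203 held 4.04% and 1.90% of the Npr3 TPM. On coding transcripts, Npr3 therefore exceeded Adrb3 in endostatin 3.

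**Figure D1:**
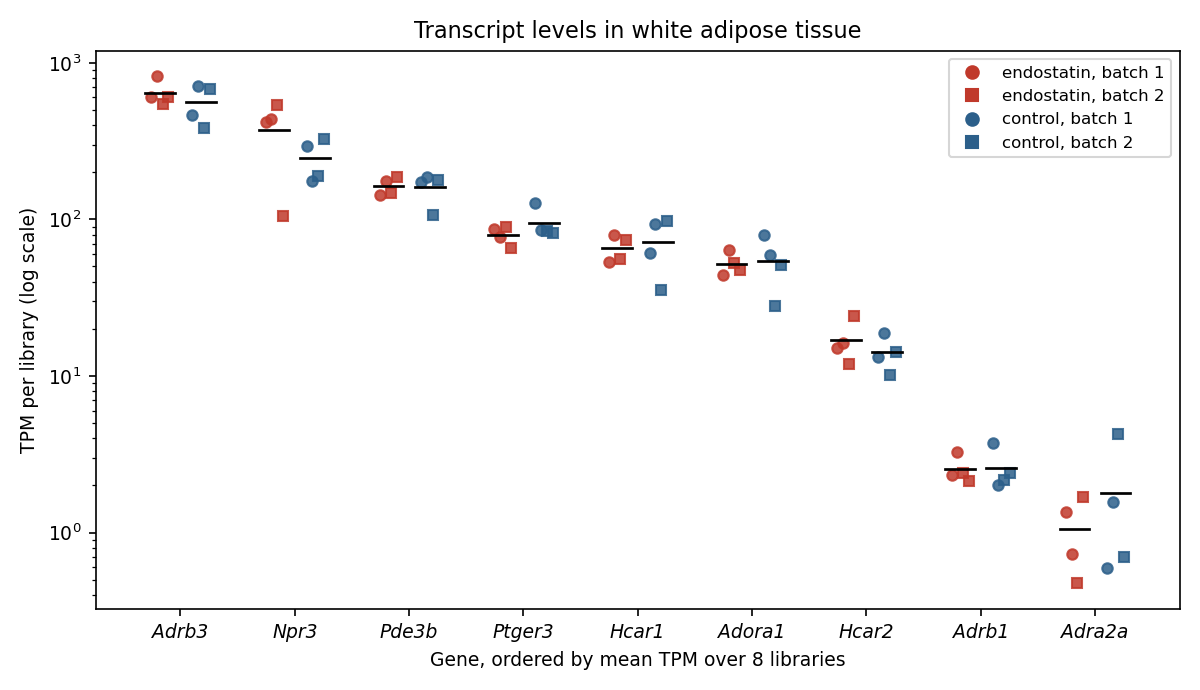
TPM of each gene in each library on a log scale, endostatin libraries left of control libraries, with circles for batch 1, squares for batch 2 and bars at the group means. Levels run from Adrb3 at 383 to 822 TPM down to Adra2a at 0.473 to 4.28 TPM, and the groups overlap for every gene.

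No gene of the 9 differed between endostatin and control beyond the spread of the libraries. In edgeR's quasi-likelihood test with a batch term, 0 of 9 passed an adjusted p of 0.05, with 0 of 15184 genes called in all (0%), and every adjusted p of the 9 was 1.00. At an unadjusted p under 0.05 the count was 0 of 9, against 485 of all genes (3.19%). DESeq2 called 0 of the 9 and 4 genes in all (0.0263%), and limma-voom called 0 of either. The CPM ranges of the groups overlapped for all 9, whereas they did not overlap for 249 of all genes tested (1.64%). Of the 9 log2 fold changes 4 were positive and 5 negative, with a median of -0.06; over all genes 46.6% were positive, with a median of -0.01.

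**Figure D2:**
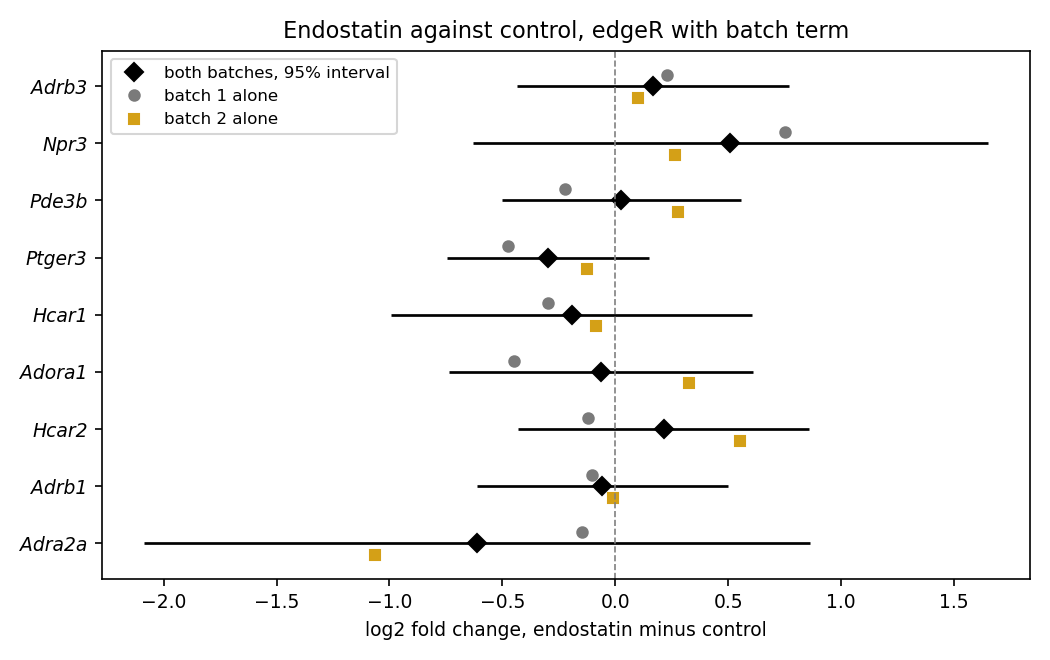
Log2 fold change of each gene, endostatin minus control, from the edgeR fit of both batches (diamond, with its 95% interval) and within batch 1 (circle) and batch 2 (square). All 9 intervals include 0; the widest is that of Adra2a, from -2.09 to 0.86, and the narrowest that of Ptger3, from -0.75 to 0.15.

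Among the receptors that stimulate lipolysis, Adrb3, the main beta-adrenergic receptor of rodent adipocytes, had 606, 822, 547 and 603 TPM in endostatin 1 to 4, against 465, 706, 383 and 679.7 TPM in control 1 to 4. The groups overlapped, and the lowest value was that of control 3, the library with the lowest sum of adipocyte markers. The means were 644 ± 121 TPM with endostatin and 558 ± 159 TPM in controls (SD, n = 4 each). The log2 fold change in normalised counts was 0.17 ± 0.26 (SE), with a 95% interval from -0.44 to 0.77. It was -0.02 without control 3 and 0.01 without both endostatin 4 and control 3.

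Adrb1 (ENSMUSG00000035283), the beta receptor that prevails in the heart, was present at a far lower level. It had 2.32, 3.26, 2.40 and 2.13 TPM in endostatin 1 to 4, against 3.71, 2.01, 2.17 and 2.41 TPM in control 1 to 4. Neither group stood higher, and the highest value was that of control 1. Its log2 fold change was -0.06 ± 0.24, with an interval from -0.61 to 0.50. Adrb3 (ENSMUSG00000031489) made up 99.2% to 99.7% of the summed TPM of Adrb1 and Adrb3 in the 8 libraries.

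Among the inhibitory receptors, Ptger3 (ENSMUSG00000040016), the EP3 receptor of prostaglandin E2, had the highest mean level with all transcripts summed. It exceeded Hcar1 in 4 of 8 libraries. On coding transcripts alone Hcar1 had the higher mean, 68.7 TPM against 54.4 TPM for Ptger3. With all transcripts summed, Ptger3 had 86.3, 77.1, 89.7 and 65.5 TPM in endostatin 1 to 4, against 127.5, 85.3, 84.6 and 81.7 TPM in control 1 to 4. Control 1 was far above the other 7 libraries, which lay close together. Endostatin minus control, the log2 fold change was -0.30 ± 0.19, with an interval from -0.75 to 0.15, and without control 1 it was -0.10. Without endostatin 3 it was -0.46, with an interval from -0.90 to -0.02 (unadjusted p = 0.0420, edgeR adjusted p = 0.9999). With limma-voom under sample quality weights it was -0.41 (unadjusted p = 0.0485, adjusted p = 0.621). The sign of the edgeR log2 fold change was negative in both batches, with -0.47 in batch 1 and -0.12 in batch 2.

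Hcar1 (ENSMUSG00000049241), the lactate receptor of adipocytes, had 53.6, 79.1, 56.0 and 73.6 TPM in endostatin 1 to 4, against 60.8, 93.5, 35.4 and 97.2 TPM in control 1 to 4. Control libraries held both the highest and the lowest values. On the log2 scale the fold change was -0.19 ± 0.35, with an interval from -0.99 to 0.61. Without endostatin 4 and control 3 it was -0.50, with an interval from -1.03 to 0.03, and without control 4 alone it was 0.19.

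Adora1 (ENSMUSG00000042429), the adenosine A1 receptor, through which adenosine restrains lipolysis, had 44.1, 63.6, 52.3 and 47.3 TPM in endostatin 1 to 4, against 79.3, 59.2, 27.9 and 51.2 TPM in control 1 to 4. As with Hcar1, the endostatin values lay inside the range of the controls. The log2 fold change was -0.06 ± 0.29, with an interval from -0.73 to 0.61. It was -0.45 in batch 1 and 0.33 in batch 2, and the interaction of batch and treatment did not pass (0.78 ± 0.54, edgeR adjusted p = 0.997). That interaction was 0.31 without control 3 and 1.46 without control 4 (unadjusted p = 0.0118, edgeR adjusted p = 0.256).

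Hcar2 (ENSMUSG00000045502) is expressed by adipocytes and also by macrophages and neutrophils. It had 15.0, 16.3, 12.0 and 24.3 TPM in endostatin 1 to 4, against 13.3, 18.8, 10.1 and 14.3 TPM in control 1 to 4. The highest value was that of endostatin 4, where the 9 macrophage markers (1329 TPM) and the 7 neutrophil markers (71.6 TPM) also had their highest sums; their part in the result was not tested. Endostatin 3, with 1235 TPM of macrophage markers, had the second lowest Hcar2 level. A log2 fold change of 0.21 ± 0.28 was found, with an interval from -0.43 to 0.86, and without endostatin 4 and control 3 it was -0.20.

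Adra2a (ENSMUSG00000033717), the alpha-2A adrenergic receptor, rested on 19 to 65 estimated counts per endostatin library and 22 to 141 per control library. It had 1.36, 0.724, 0.473 and 1.69 TPM in endostatin 1 to 4, against 0.594, 1.56, 4.28 and 0.701 TPM in control 1 to 4. Control 3 was highest and endostatin 4 second, the same libraries whose oviduct and uterus markers were raised. Mesothelium markers were also highest there, at 874 TPM in control 3 and 705 TPM in endostatin 4. So were pericyte and smooth muscle markers, at 1592 TPM in control 3 and 2449 TPM in endostatin 4. Control 2, close behind endostatin 4 for Adra2a, had 23.6 TPM of oviduct and uterus markers. The part of these tissues in the Adra2a level was not tested. For Adra2a the log2 fold change was -0.61 ± 0.64, with an interval from -2.09 to 0.86, and without control 3 it was 0.11. The related Adra2c and Adra2b had mean levels of 0.438 and 0.175 TPM.

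Pde3b (ENSMUSG00000030671), the phosphodiesterase through which insulin lowers cAMP in fat, had 143, 175, 147 and 186 TPM in endostatin 1 to 4, against 174, 186, 107 and 179 TPM in control 1 to 4. Control 3 was well below the other 7 libraries. The means were 162 ± 21.1 TPM with endostatin and 162 ± 36.7 TPM in controls (SD, n = 4 each). The log2 fold change was 0.03 ± 0.23, with an interval from -0.50 to 0.56. Without endostatin 4 and control 3 it was -0.25, with an interval from -0.51 to 0.01.

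Npr3 (ENSMUSG00000022206), the natriuretic peptide clearance receptor, varied more between libraries than any of the others except Adra2a. It had 418, 435, 537 and 105 TPM in endostatin 1 to 4, against 292, 175, 189 and 328 TPM in control 1 to 4. Endostatin 1, 2 and 3 lay above all 4 controls, and endostatin 4 lay below them all. The log2 fold change was 0.51 ± 0.49, with an interval from -0.63 to 1.65. Without endostatin 4 it was 0.85, with an interval from 0.13 to 1.58 (unadjusted p = 0.0277, edgeR adjusted p = 1.00). Without endostatin 4 and control 3 it was 0.69, with an interval from 0.19 to 1.20 (unadjusted p = 0.0144, edgeR adjusted p = 0.617). Without endostatin 3 it was -0.01. Endostatin 4 is also the library with the highest hepatocyte marker sum and with raised oviduct and uterus markers. Endostatin 2 and 1 had the next highest hepatocyte sums (551 and 360 TPM) and high Npr3. Control 3, with the highest oviduct and uterus sum, had more Npr3 than control 2. Lpl, Gpd1, Slc2a4, Lep and Retn were lowest in endostatin 4, although its adipocyte marker sum lay within the range of the other endostatin libraries. The part of these tissues and markers in its Npr3 level was not tested.

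Summed over receptors, the beta-adrenergic transcripts Adrb1 and Adrb3 exceeded the 5 Gi-coupled ones in all 8 libraries on the TPM scale. The ratio of the sums in TPM was 3.04, 3.48, 2.61 and 2.85 in endostatin 1 to 4, against 1.66, 2.74, 2.37 and 2.78 in control 1 to 4. The groups overlapped, since endostatin 3 lay below control 2 and control 4. The means were 2.99 ± 0.37 with endostatin and 2.39 ± 0.52 in controls (SD, n = 4 each), and no test was made of this sum over chosen genes. The lowest ratio, that of control 1, came with the highest Ptger3 and Adora1 levels. Within the inhibitory sum, Ptger3 held 30.8% to 43.1% in endostatin libraries and 33.0% to 52.1% in control libraries. Hcar1 held 26.6% to 34.7% in endostatin libraries and 21.6% to 39.7% in control libraries, and Adora1 22.0% to 26.9% in endostatin libraries and 17.2% to 28.2% in control libraries. With estimated counts, which are not scaled by transcript length, the mean ratio was 1.62 with endostatin and 1.29 in controls, and that of control 1 was 0.861.

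Several of the genes were lowest in the library with the lowest sum of adipocyte markers. Control 3 had the lowest value for 5 of the 9 genes, Adrb3, Pde3b, Hcar1, Adora1 and Hcar2, and the highest for Adra2a. Divided by the adipocyte marker sum, the ratio of highest to lowest library was 1.29 for Pde3b (1.74 in TPM), 1.49 for Hcar1 (2.74 in TPM) and 1.76 for Adora1 (2.84 in TPM). It was also smaller for Adrb3 at 1.85 (2.15 in TPM), for Hcar2 at 2.07 (2.40 in TPM) and slightly for Npr3 at 5.04 (5.14 in TPM). For 3 genes it was larger: Ptger3 at 2.09 (1.95 in TPM), Adrb1 at 2.01 (1.85 in TPM) and Adra2a at 15.0 (9.06 in TPM). With the adipocyte marker level as a further term of the fit, 0 of the 9 genes passed between endostatin and control. The SE of the log2 fold change was then 0.15 for Hcar1 (0.35 without the term) and 0.12 for Pde3b (0.23 without it), with log2 fold changes of -0.12 and 0.03. It was not smaller for Ptger3, at 0.194 (0.193 without the term), or for Npr3, at 0.50 (0.49 without it).

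**Figure D3:**
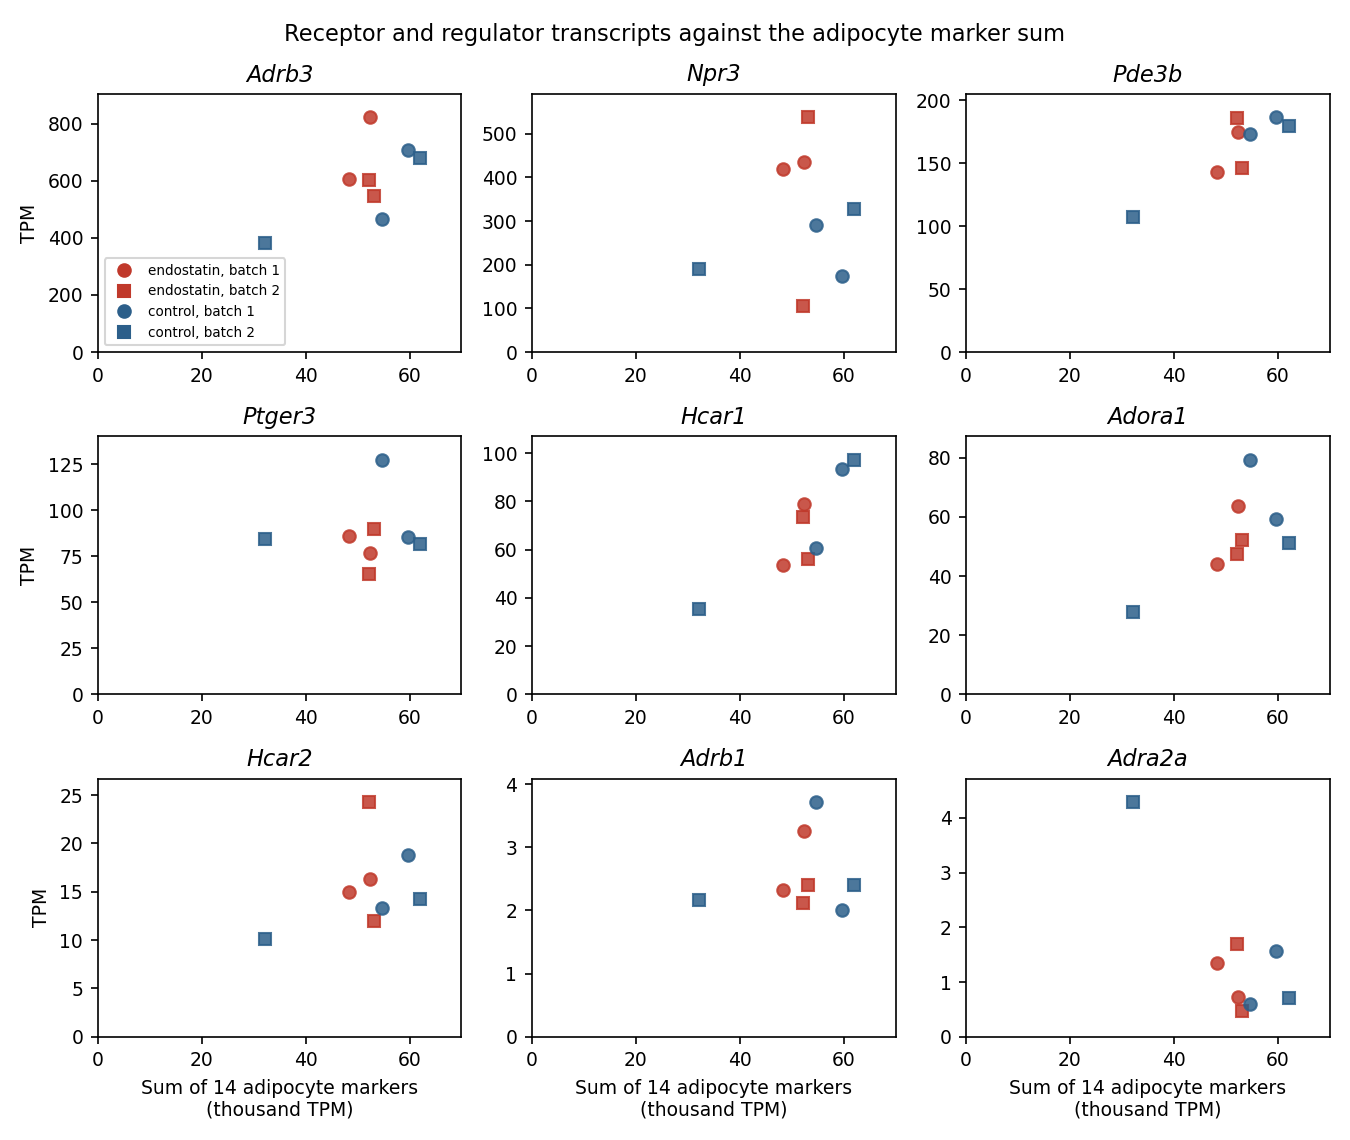
TPM of each gene against the summed TPM of 14 adipocyte markers in the same library, with endostatin in red, control in blue, circles for batch 1 and squares for batch 2. Control 3, at 32193 TPM of markers, is lowest for Adrb3, Pde3b, Hcar1, Adora1 and Hcar2 and highest for Adra2a. Npr3 ranges from 105 to 537 TPM among the endostatin libraries, whose marker sums lie between 48385 and 53138 TPM. Single markers, such as Lpl and Gpd1, are nevertheless lowest in endostatin 4.

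Batch did not set the 9 genes apart. Between batch 2 and batch 1, 0 of 9 passed edgeR's test, with 6 of 15184 genes called in all (0.0395%), and 0 of 9 had an unadjusted p under 0.05, against 1513 of all genes (9.96%). The log2 difference, batch 2 minus batch 1, was negative for 8 of the 9. It was most negative for Adora1 (-0.59 ± 0.29, mean 105 CPM in batch 2 and 159 CPM in batch 1) and Ptger3 (-0.39 ± 0.19, 114 CPM in batch 2 and 151 CPM in batch 1). Both depended on single libraries, in either direction. Adora1 was -0.33 without control 3 and -0.78 without endostatin 1 (unadjusted p = 0.0327, edgeR adjusted p = 0.759). Ptger3 was -0.19 without control 1 and -0.54 without endostatin 3 (unadjusted p = 0.0226, edgeR adjusted p = 0.496). Adra2a alone was positive (0.53 ± 0.64), and without control 3 it was -0.21. The interaction of batch and treatment passed for 0 of 9 and for 0 of all genes (0%) with edgeR's test; at an unadjusted p under 0.05 it was 0 of 9 against 527 of all genes (3.47%). The sign of the treatment difference was the same in both batches for 6 of the 9, against 47.7% of all genes.

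Transcript shares showed which forms of each receptor made up these levels. Salmon divides reads that fit several transcripts, so the shares are estimates. Adrb3-201 and Adrb3-203 have identical coding sequences and together with Adrb3-202 are its coding transcripts. Adrb3-203 held 39.9% ± 5.7 of the Adrb3 TPM in endostatin libraries and 35.8% ± 2.3 in control libraries (SD, n = 4 each), and Adrb3-201 held 33.5% ± 3.2 in endostatin libraries and 34.7% ± 1.1 in control libraries. Adrb3-202, with the alternative end, held 4.94% ± 1.01 with endostatin and 5.62% ± 0.89 in controls. The rest was mainly Adrb3-204, a short transcript without a coding frame, with 3.14% of the gene's estimated counts but 22.2% of its TPM over the 8 libraries.

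For Ptger3, the form ending as Ptger3-202 held 56.0% ± 6.9 of the TPM with endostatin and 54.3% ± 5.3 in controls, and Ptger3-201 held 7.54% ± 0.83 with endostatin and 8.08% ± 0.15 in controls. The remainder was Ptger3-203, annotated as a retained intron without a coding frame, at 36.5% ± 6.2 with endostatin and 37.6% ± 5.3 in controls. Over the 8 libraries it held a mean of 49.5% of the gene's estimated counts, on which the Ptger3 fold change was computed. Adora1 was divided between Adora1-202 (53.6% ± 4.2 with endostatin, 52.7% ± 3.5 in controls) and Adora1-201, which have the same 981 coding bases. Of the Npr3 TPM, Npr3-201 held 48.0% ± 4.1 with endostatin and 49.9% ± 3.7 in controls. Npr3-205, without the 3 bases, held 41.2% ± 5.1 with endostatin and 39.0% ± 3.7 in controls. Of the gene's estimated counts, Npr3-201 held a mean of 74.0% and Npr3-205 20.2% over the 8 libraries. Hcar1 and Hcar2 had 1 transcript each in the files, and Pde3b-201 held 84.0% to 96.6% of the Pde3b TPM.

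Of these genes, 14 transcripts had a mean share of 5% to 95% in a gene of at least 10 TPM. The endostatin and control ranges overlapped in all 14, against no overlap in 2.19% of all such transcripts. The ranges of the batches did not overlap in 5 of the 14, against 6.26% of all such transcripts. These 5 came from 2 genes and are not independent, since the shares of a gene sum to 100%. Npr3-205 held 41.8% to 46.2% in batch 2 and 34.7% to 37.3% in batch 1, and Npr3-201 43.8% to 47.0% in batch 2 and 51.3% to 54.2% in batch 1. Npr3-204, another coding form with a shorter frame, held 2.62% to 5.19% in batch 2 and 5.68% to 7.04% in batch 1. Adora1-201 held 48.0% to 49.7% in batch 2 and 41.3% to 44.7% in batch 1, and Adora1-202 was correspondingly lower in batch 2. No test was made of these shares.

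**Figure D4:**
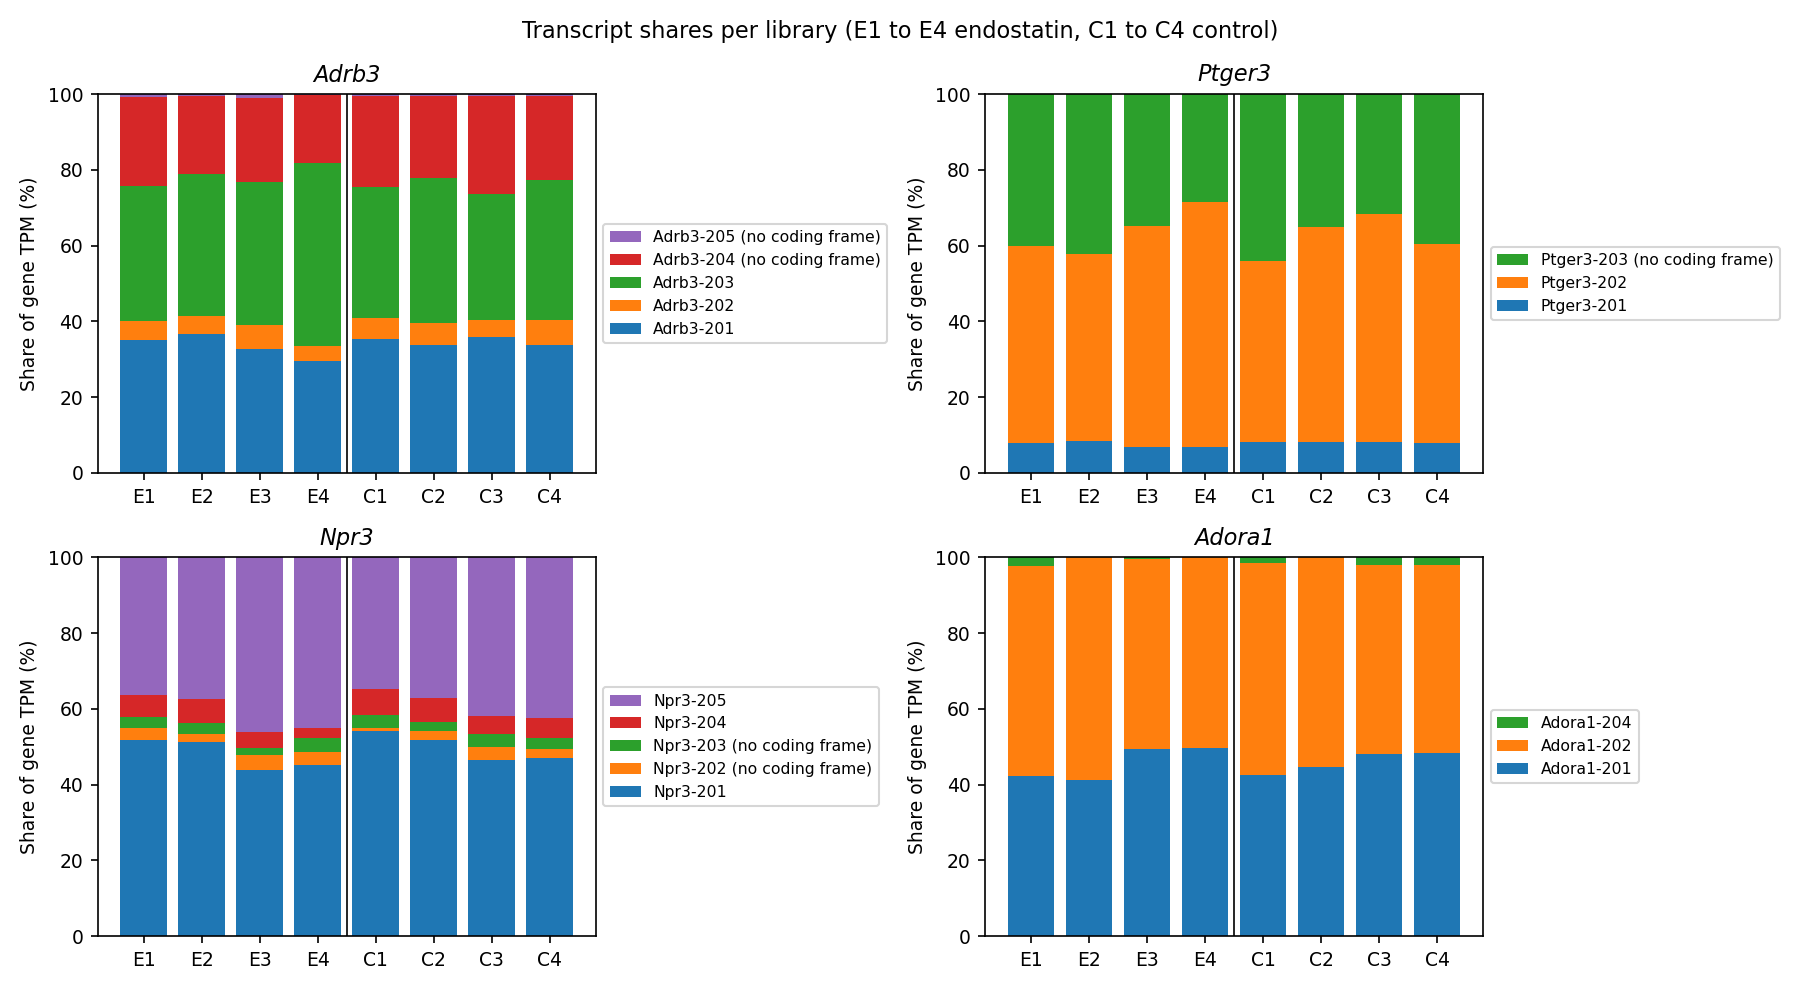
Share of each annotated transcript in the TPM of its gene, in percent, for Adrb3, Ptger3, Npr3 and Adora1 in endostatin libraries (E1 to E4) and control libraries (C1 to C4). The groups overlap for every transcript with at least 5% of its gene, while Npr3-205 and Adora1-201 are higher in libraries 3 and 4 of each group, the libraries of batch 2, than in libraries 1 and 2.

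The wider pathway was described with 10 lists of genes, of which 102 genes were tested, and 0 passed edgeR's test in either direction. At an unadjusted p under 0.05 there were 2 of 102, Akap12 and Adra2c, beside 3.19% of all genes. Among other Gs-coupled receptors, Tshr, the thyrotropin receptor, had the highest mean level (73.6 TPM), above Hcar1 and below Ptger3, followed by Pth1r (37.7 TPM). Of 12 tested, 10 log2 fold changes were positive and their median was 0.17; Adora2a had 0.25 ± 0.19, Gcgr 0.56 ± 0.50, Adcyap1r1 -0.36 ± 0.34 and Ptger4 -0.41 ± 0.43. Among other Gi-coupled receptors S1pr1, Sucnr1 and Ffar2 led with 48.3, 45.9 and 25.5 TPM. Of 7 tested, 5 were positive, with a median of 0.05; Ffar2, a receptor of short-chain fatty acids, had 0.45 ± 0.28, Npy1r 0.22 ± 0.20 and Aplnr -0.62 ± 0.27. Aplnr was -0.01 in batch 1 and -1.25 in batch 2 (interaction unadjusted p = 0.00757, edgeR adjusted p = 0.997). Ffar2 was -0.09 in batch 1 and 0.99 in batch 2 (interaction unadjusted p = 0.0393, edgeR adjusted p = 0.997). Adra2c, at 0.529 CPM with endostatin and 1.12 CPM in controls, had -1.03 ± 0.42 (unadjusted p = 0.0388, edgeR adjusted p = 1.00); it was chosen after its values were seen. Of 6 alpha-1 adrenergic and Gq-linked receptors 4 were positive, with a median of 0.05; Adra1b had 0.35 ± 0.26, Adra1a 0.11 ± 0.21, Ednra -0.21 ± 0.19 and P2ry1 -0.10 ± 0.20.

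Downstream of the receptors, Gnas, which encodes the alpha subunit of Gs, had a mean of 877 TPM, and Gnai2, of Gi, 253 TPM. Of 12 G protein subunits 6 were positive and the median was -0.0021; Gng2 had 0.20 ± 0.14, Gnai2 0.14 ± 0.10, Gng5 -0.16 ± 0.12 and Gng12 -0.23 ± 0.28. Adcy6 (103 TPM) and Adcy5 (80.2 TPM) were the leading adenylyl cyclases; of 9 tested 5 were positive, with a median of 0.10. Adcy7 had 0.22 ± 0.17, Adcy3 0.15 ± 0.14, Adcy1 -0.62 ± 0.39 and Adcy10 -0.68 ± 0.64. Prkar2b, a regulatory subunit of PKA abundant in fat, had 434 TPM. Of 12 PKA subunits, inhibitors and anchors 7 were positive, with a median of 0.03; Akap12, a PKA anchor, had 0.54 ± 0.20 (unadjusted p = 0.0279, edgeR adjusted p = 1.00), Pkia 0.20 ± 0.13, Prkar1b -0.23 ± 0.35 and Pkib -0.11 ± 0.19.

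No other cAMP phosphodiesterase of the list approached Pde3b, which averaged 162 TPM: Pde2a and Pde7a followed with 43.6 and 41.3 TPM. Of 14 tested 7 were positive, with a median of 0.01; Pde4d had 0.34 ± 0.21, Pde2a 0.58 ± 0.44, Pde4a -0.16 ± 0.17 and Pde8b -0.27 ± 0.33. Of 10 receptor kinases, arrestins and RGS genes 7 were positive, with a median of 0.03; Arrb1, a beta-arrestin, had 0.21 ± 0.11, Arrb2 0.13 ± 0.13, Grk3 -0.08 ± 0.16 and Grk4 -0.04 ± 0.17. In the natriuretic peptide pathway the signalling receptors Npr2 (64.3 TPM) and Npr1 (61.7 TPM) stood well below Npr3 (mean 310 TPM), and the ligands Nppa, Nppb and Nppc had mean levels of 0.058, 0.115 and 0.030 TPM. Of 6 tested 2 were positive, with a median of -0.06; Npr1 had 0.21 ± 0.15, Pde9a 0.03 ± 0.26, Prkg1 -0.17 ± 0.24 and Pde5a -0.17 ± 0.40. Of 16 CREB factors and cAMP-responsive genes 10 were positive, with a median of 0.10. Nr4a1 had 0.35 ± 0.18, Dio2 -1.48 ± 1.00 and Ucp1 -2.02 ± 1.64. For Ucp1 and Dio2 a single control library made up most of the control level. The control mean of Ucp1 was 24.9 ± 44.7 TPM (SD), with 91.8 TPM in the highest library. That of Dio2 was 6.31 ± 10.4 TPM, with 21.9 TPM in the highest library. Brown and beige fat markers, which include Ucp1 and Dio2, summed to 61.7 to 255 TPM in endostatin libraries and 137 to 482 TPM in control libraries, highest in control 3.

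The genes whose levels followed each of the 9 most closely are given as a description over the 8 libraries, which share their batches and tissue makeup, from 14342 genes averaging 1 CPM or more (Pearson correlation of log2 CPM). For Adrb3 they included Ablim1 (r = 0.978) and Gab3 (0.972), and for Adrb1 they were Ctnna1 (r = 0.991), Slc37a4 (0.973) and Clmp (0.963). Ptger3 was followed by Cyp51 (r = 0.971), Spcs1 (0.953) and Insig1 (0.952), of which Cyp51 is an enzyme of sterol synthesis and Insig1 a sensor of sterols. A link of Ptger3 to sterols was not tested, and control 1 lay far above the other libraries for Ptger3. Picked as the closest of 14342 genes over 8 libraries, the followers of all 9 genes had r of 0.952 or more. Hcar1 was followed by Ganc (r = 0.979), Gzf1 (0.973) and Coq8a (0.973), and Hcar2 by Lgals8 (0.977), Rab9 (0.974) and Cep120 (0.968). Adora1 was followed by Trpc4ap (r = 0.971), Nthl1 (0.971) and Dcun1d4 (0.965), and Adra2a by Plagl2 (0.981), Cacnb1 (0.980) and Scmh1 (0.979). For Pde3b they were Chp1 (r = 0.990), Ormdl3 (0.985) and Fam213a (0.984), and for Npr3 they were Hspa12a (r = 0.979), Ptchd4 (0.976) and Cdc42bpb (0.972).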

How the data were processed

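Estimated counts and TPM per transcript were deposited as Salmon output. The submitters' processing notes name Salmon and the GRCm39 build, with no version. Per the labels' protocols, ribosomal RNA was removed and the strand was marked with dUTP. Each file lists 115620 transcripts, of which 113710 (98.35%) matched GENCODE M21 without version; M21 gave gene names, transcript types and sequences only, on GRCm38. Effective lengths in the deposited files were used for length offsets and for an alternative ranking of levels by CPM per kilobase. For each gene the estimated counts of its transcripts were added and rounded, and TPM added. edgeR 4.0.16 (R 4.3.3) with filterByExpr, TMM and a batch term tested 15184 genes, two-sided, with Benjamini-Hochberg adjustment, a threshold of 0.05 and 95% intervals. limma 3.58.1 and DESeq2 1.42.0 were alternatives, beside other scalings, filters, terms and left-out libraries. The fit was tested on simulated data. All 9 genes are reported; from each pathway list, up to 2 genes per direction with the smallest p among those averaging 1 CPM or more are named, and log2 CPM for correlations had a prior count of 2. The 9 genes, the lists and the left-out pairs of libraries were chosen with earlier results of these data known. A further gene that closely followed Adrb3 is not reported here.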

Additional observations from a re-analysis of the deposited data

Results flagged for a closer look

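Within the 4 libraries of each group, 20 sets of values were examined for a library far from the others (9 genes and the receptor ratio in each group), of which chance alone would set apart about 1 in 20. A single library stood far from the other 3 in 2 of them. For Ptger3 this was control 1 at 127.5 TPM, where control 2 to 4 had 81.7 to 85.3 TPM. For Pde3b it was control 3 at 107.2 TPM, where the remaining controls had 173.6 to 186.4 TPM. Control 3 also had the lowest sum of adipocyte markers, whose part in the result was not tested.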

How the results depend on the processing

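In all 23 alternatives 0 of the 9 genes and 0 genes of the pathway lists passed between endostatin and control. Over all genes 4 passed with DESeq2 and 1 with limma-voom under sample quality weights, where edgeR called 0. Directions turned in several settings, with the cause not tested. They did so for Adora1 with limma-voom (0.026), for Hcar2 and Pde3b with sample quality weights (-0.0057 and -0.16), and for Pde3b with length offsets (-0.045). Without endostatin 4 and control 3 Hcar2 was -0.20 and Pde3b -0.25, and without control 1 and control 4 Adrb1 was 0.25, Adora1 0.36 and Hcar1 0.16. Leaving out each library in turn gave -0.021 to 0.44 for Adrb3, -0.17 to 0.10 for Adrb1, -0.91 to 0.11 for Adra2a and -0.34 to 0.13 for Adora1. It gave -0.48 to 0.19 for Hcar1, -0.084 to 0.37 for Hcar2, -0.20 to 0.18 for Pde3b, -0.010 to 0.85 for Npr3 and -0.46 to -0.10 for Ptger3, the gene with no change of sign. Between batches, 2 genes were called with library size only, 171 with DESeq2 and 10 with limma-voom, and 0 to 18 without single libraries, against 6. Adra2a was -0.026 with the adipocyte term. Without single libraries the batch difference was -0.21 to 0.86 for Adra2a, -0.59 to 0.067 for Hcar1, -0.48 to 0.011 for Hcar2, -0.30 to 0.055 for Pde3b and -0.82 to 0.039 for Npr3, and with no change of sign -0.78 to -0.33 for Adora1 and -0.54 to -0.19 for Ptger3. The interaction, where the lone library of a batch and group was assumed to vary like the others, was -0.29 to 0.40 for Adrb1, -0.59 to 0.54 for Adrb3, -2.03 to 0.71 for Adra2a, -0.051 to 0.67 for Ptger3, -0.41 to 1.32 for Hcar1 and -2.13 to 0.26 for Npr3. With no change of sign it was 0.31 to 1.46 for Adora1, 0.102 to 1.101 for Hcar2 and 0.095 to 1.06 for Pde3b. With estimated counts the receptor ratio was 1.62 with endostatin and 1.29 in controls. The ranks held for all 9 genes without any single library, and for 7 of 9 with coding transcripts alone.

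Libraries of the same number share a batch but otherwise only a number: the correlations of their deviations from the group means were 0.211, 0.144, -0.073 and -0.295, and 1 of 4 endostatin libraries correlated best with the control of its number. With the replicate block 0 genes were called, and Npr3 had a log2 fold change of 0.43. With 4 libraries a group, the 95% intervals ran from -0.75 to 0.15 for Ptger3, the narrowest of the 9, and from -2.09 to 0.86 for Adra2a, the widest, which limits the differences that could be seen.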
